A study of Homo sapiens with 12 samples.

Results

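The 33 genes described here code for the enzymes that make cholesterol and fatty acids and for the proteins that regulate them. They were chosen by name from the 60617 genes of the expression table, whose unit, TPM, corrects the reads of a gene for its length and for the depth of the library. The sterol arm holds 19 enzymes from acetyl-CoA to cholesterol, the fatty acid arm holds 8 enzymes, and 6 genes regulate both or move sterol between membranes. RNA-Seq libraries had been made from the induced pluripotent stem cell (iPSC) line 201B7, an established line, in order to set the pluripotent state of the cells beside their bright-field images. There were 12 libraries, 3 for each of 4 culture conditions of the same line, and cells were collected on day 5. Cond 1 was the control, kept in StemFit, a defined stem cell medium. Cond 2, called low nutrient, received StemFit that had been heated at 56 °C for 30 min. Cond 3, called differentiation, received DMEM with 10% FBS (fetal bovine serum), 1% MEM NEAA (amino acids) and 1% GlutaMax. The authors describe heated medium in Cond 2 from day 2 and stimulation with FBS in Cond 3 on day 4. Cond 4, called physical stimulas in the labels, was pipetted 20 times at passaging and then cultured as the control. All 4 conditions shared a plate, with one well for each, and this was done in triplicate. The authors call the 3 replicates of a condition technical. All libraries are of one line, so the p-values measure the spread between such replicate wells of this line.

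Cells build cholesterol from acetyl-CoA through mevalonate, isoprenoid diphosphates, squalene and lanosterol, and they build fatty acids from the same acetyl-CoA through malonyl-CoA and palmitate. Transcription of both sets of enzymes is driven by the SREBP factors, encoded by SREBF1 and SREBF2, which stay in the endoplasmic reticulum with their escort SCAP and the retention proteins INSIG1 and INSIG2 while sterol is plentiful. When sterol is low, the factors move to the Golgi, are cut, and enter the nucleus, so that mRNA levels of the enzymes are commonly read as a sign of the cell's sterol supply.

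Libraries held 16441148 to 21871503 counts. Markers of pluripotent cells, summed over the list, stood at 8641 to 8909 TPM in Cond 1, 7392 to 8485 in Cond 2, 8777 to 9502 in Cond 3 and 8471 to 8956 in Cond 4. Within that list NANOG, a core factor of the pluripotent state, was lower in Cond 2 and Cond 3 by log2 fold changes of -1.09 and -2.16 (edgeR adjusted p = 6.43e-10 and 1.4e-14). TDGF1, a co-receptor of Nodal, was also lower in both (-1.50 and -0.94, edgeR adjusted p = 4.34e-10 and 2.58e-07). L1TD1 and DPPA4 were called lower in both as well, and PODXL in Cond 2. Other members of the list went up. SOX2 was higher in both (0.44 and 0.45, edgeR adjusted p = 5.37e-08 and 1.89e-08), as were LIN28A and SALL4. DNMT3B and ZFP42 were called higher in Cond 3. The labels also give skin as the tissue. Of 8 skin fibroblast markers, 4 (COL3A1, DCN, LUM and FAP) were under 1 TPM in every library, with FAP at 0. The list summed to 416 to 447 TPM in Cond 1, 256 to 307 in Cond 2, 580 to 616 in Cond 3 and 378 to 400 in Cond 4. In Cond 3 its collagens COL1A1 and COL1A2 were higher (0.80 and 1.20, edgeR adjusted p = 3.42e-09 and 2.45e-12) and THY1 was lower (-1.56, edgeR adjusted p = 3.63e-13).

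Hepatocytes and adipocytes make much lipid. Of 8 hepatocyte markers, 5 were under 1 TPM in every library, ALB and TTR among them, with TTR at 0. The list summed to 2.65 to 4.39 TPM in Cond 1, 3.93 to 7.52 in Cond 2, 7.81 to 13.0 in Cond 3 and 3.33 to 4.81 in Cond 4. AFP, a fetal liver protein, was higher in Cond 3 at a mean of 3.85 TPM against 0.28 in Cond 1 (log2 fold change 3.63, edgeR adjusted p = 0.000377). Of 8 adipocyte markers, 6 were under 1 TPM in every library, with CIDEC at 0, and the list summed to 12.9 to 15.0 TPM in Cond 1, 6.88 to 10.7 in Cond 2, 9.1 to 10.5 in Cond 3 and 10.7 to 15.0 in Cond 4. Neuroectoderm markers, among them SIX3 and LHX5, summed to 22.7 to 43.1 TPM in Cond 1, 573 to 910 in Cond 2, 62.1 to 82.1 in Cond 3 and 30.1 to 58.7 in Cond 4. Of these 8 markers, PAX6 and SOX1 were under 1 TPM in every library, and LHX2 was not called in Cond 2 (edgeR adjusted p = 0.102). SIX3, LHX5, ZIC1, HESX1 and DLK1 were called higher in Cond 2, as was PAX6 at its low level. LHX5 and HESX1 were called higher in Cond 3 too, by log2 fold changes of 2.01 and 0.79 (edgeR adjusted p = 6.06e-07 and 0.00125). The other tested markers of this list were not called in Cond 3. Surface ectoderm markers summed to 350 to 417 TPM in Cond 1, 285 to 325 in Cond 2, 207 to 225 in Cond 3 and 307 to 381 in Cond 4, where KRT18 made up most of the sum. Less abundant members of that list were higher in Cond 2, DLX5 by a log2 fold change of 7.27, TFAP2A by 4.84 and GATA3 by 4.66 (edgeR adjusted p = 6.56e-07, 3.86e-08 and 1.59e-06). DLX3, KRT7 and MSX2 were called higher there as well, and TFAP2B was under 1 TPM in every library. TFAP2A and KRT7 were called higher in Cond 3 too (2.28 and 0.45, edgeR adjusted p = 0.00108 and 0.00214). So was DLX3, with overlap (edgeR adjusted p = 0.0176), while DLX5, GATA3 and MSX2 were not called in Cond 3. KRT18 was lower in Cond 2 and Cond 3 (-0.61 and -0.99, edgeR adjusted p = 3.64e-06 and 1.43e-09). Of 8 mesendoderm markers, 5 were under 1 TPM in every library. The list summed to 1.21 to 2.71 TPM in Cond 1, 1.92 to 3.93 in Cond 2 and 1.29 to 4.78 in Cond 3. Its member TBXT was called higher in Cond 3, at a mean of 1.12 TPM against 0.0806 in Cond 1 (3.77, edgeR adjusted p = 0.00336). MIXL1 was not called. The part of these marker genes in the Cond 2 and Cond 3 results below was not tested. In bulk RNA, fewer cells of a type and less RNA per cell cannot be told apart.

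Promoter sequence was available from RefSeq (GRCh38.p14) for 29 of the 33 members, in 42 windows that run from 250 bases before a start site to 50 after it. No window was found for ACAT2, FDFT1, SQLE and FASN. CCAAT, the box bound by NF-Y, a partner of the SREBPs, was searched on both strands and was present for 14 of 16 sterol genes (87.5%), 5 of 7 fatty acid genes (71.4%) and 3 of 6 regulators, against 39.7% of all 27305 genes with a window. At least 2 CCAAT boxes stood in one window for 62.5% of the sterol genes against 12.9% of all genes. The sterol regulatory element in the form TCACNCCAC, where N is any base, was found on either strand for 1 member, SREBF2, and for 1.39% of all genes. The looser form TCACNCNAC, which includes the stricter one, was found for 5 of 29 members (17.2%) against 3.13% of all genes, namely FDPS, HSD17B7, FADS2, ACSS2 and SREBF2. Many sterol promoters therefore showed the box of the partner factor in these windows, and few showed the searched spelling of the element, which says only that these letters are absent from the windows. The 5 stretches below are shown because they belong to the member with the largest rise in Cond 3 (HMGCS1), to 2 sterol enzymes that rose in Cond 3 and hold the looser element (FDPS and HSD17B7), to the regulator that holds the stricter one (SREBF2), and to the member that differed most between Cond 2 and Cond 3 (ACSS2). Capitals mark CCAAT, which reads ATTGG on the other strand, and either form of the element. Where a gene had several windows, the stretch comes from the window with the most CCAAT boxes. The looser element of ACSS2 lies in another of its windows and is not shown. Each is written 5′ to 3′ on the strand of the gene. They lie at chr5:43313472-43313592 on the minus strand, and on the plus strand at chr1:155308686-155308806, chr1:162790582-162790701, chr22:41832955-41833075 and chr20:34874839-34874959.
HMGCS1: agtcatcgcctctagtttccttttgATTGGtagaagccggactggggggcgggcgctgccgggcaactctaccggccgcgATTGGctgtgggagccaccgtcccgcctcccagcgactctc
FDPS: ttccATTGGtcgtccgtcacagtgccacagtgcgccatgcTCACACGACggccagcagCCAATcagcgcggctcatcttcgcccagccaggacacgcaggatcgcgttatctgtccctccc
HSD17B7: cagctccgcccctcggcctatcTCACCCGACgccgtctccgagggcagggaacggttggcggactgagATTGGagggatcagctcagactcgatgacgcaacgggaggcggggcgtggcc
SREBF2: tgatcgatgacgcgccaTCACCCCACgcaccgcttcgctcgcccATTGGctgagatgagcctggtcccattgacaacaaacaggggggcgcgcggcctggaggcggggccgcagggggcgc
ACSS2: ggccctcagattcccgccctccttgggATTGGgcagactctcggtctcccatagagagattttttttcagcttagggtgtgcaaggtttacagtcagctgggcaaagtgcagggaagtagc

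In control cells the fatty acid arm was the more abundant one. Its 8 genes summed to 1224 ± 65.8 TPM (SD, n = 3) in Cond 1, against 786 ± 57.0 TPM for the 19 genes of the sterol arm. SCD, the desaturase that makes monounsaturated fatty acids, gave 38.1% of the fatty acid sum, with FASN, the fatty acid synthase, at 21.6% and ACLY, which makes cytosolic acetyl-CoA from citrate, at 19.8%. No sterol enzyme dominated in this way. The highest sterol genes were PMVK, a mevalonate pathway kinase, at 11.1% of its sum, SQLE, the squalene epoxidase, at 10.3%, and TM7SF2, a sterol reductase after lanosterol, at 9.43%. SREBF2 alone gave 48.1% of the sum of the 6 regulators. ACACA, the acetyl-CoA carboxylase, was listed at 0.21 to 1.01 TPM in the 12 libraries, although 83.6% of the 31-base words of its transcripts also occur on alternate haplotype sequences of the assembly, and FDFT1, the squalene synthase, at 2.83 to 4.35 TPM. How reads with several matches were counted is not given in the sources used here, so the low level of ACACA is uncertain. The same holds for LSS, the lanosterol synthase, which shares 77.5% of its words in the same way. FDFT1 shares 1.3% of its words with alternate haplotypes and 5.0% with other genes, and why it is low was not tested.

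Cond 3 against Cond 1 asked how the genes stood in serum-containing differentiation medium. Most called members were higher in Cond 3, in both arms. By the quasi-likelihood test of edgeR, with p-values adjusted over 17747 genes, 15 of 31 members with counts passed an adjusted p of 0.05 (48.4%), where 38.4% of all genes tested did. Of these, 14 members were higher (45.2%) and 1 was lower (3.23%), against 19.5% and 18.8% of all genes. On TPM, all Cond 3 libraries lay above all Cond 1 libraries for 17 members (54.8%) and below for 1, where this held for 26.6% and 22.0% of all genes. No member reached a fold change of 2, which 8.16% of all genes reached with an adjusted p under 0.05. The median log2 fold change was 0.212 in the sterol arm, 0.182 in the regulators and 0.188 in the fatty acid arm, beside -0.006 over all genes.

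**Figure D1:**
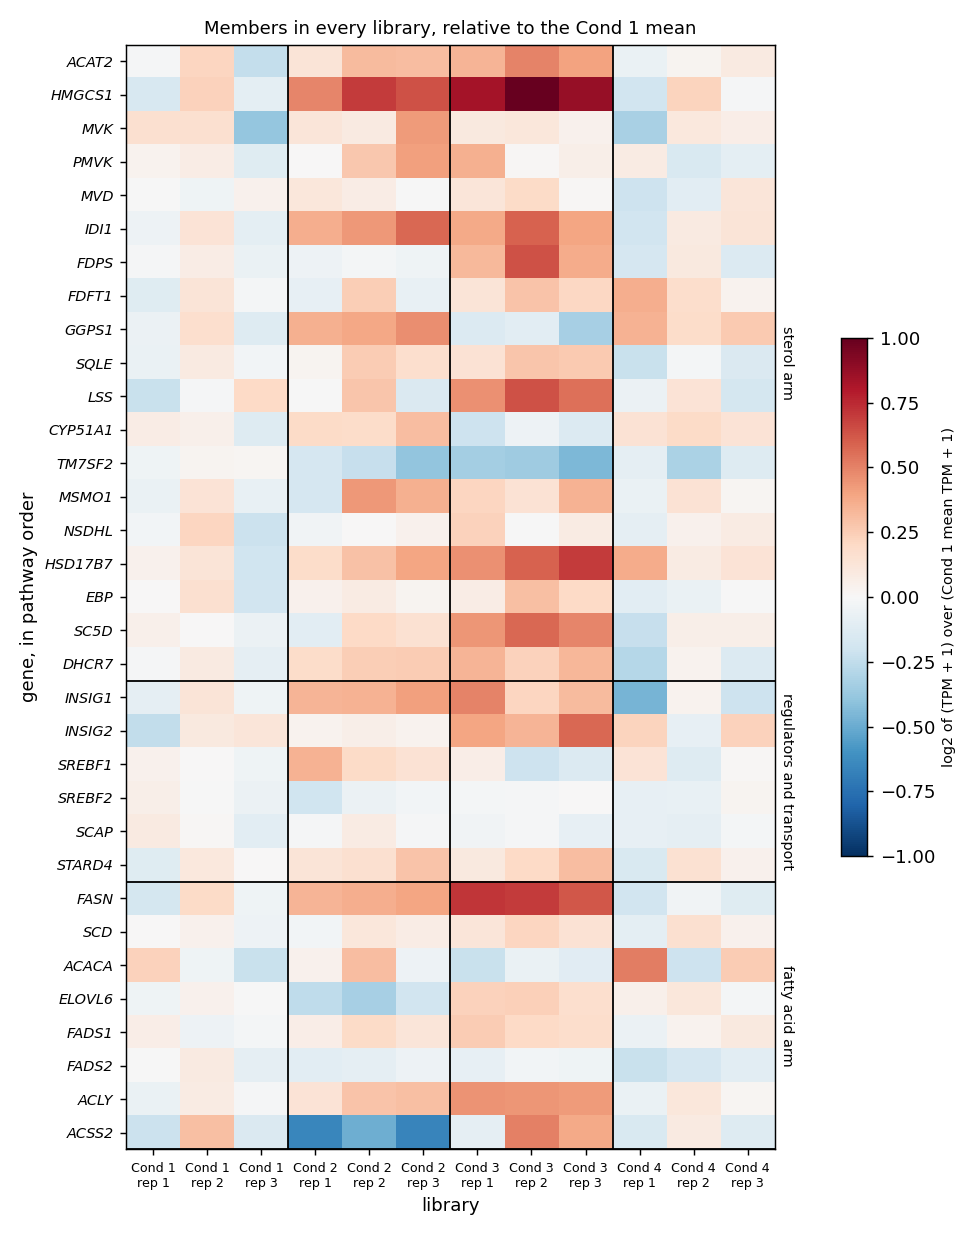
Each member (rows, in pathway order within each group) in each of the 12 libraries (columns), as log2 of TPM + 1 over the Cond 1 mean TPM + 1, with red for higher and blue for lower. HMGCS1 and FASN are red in all 3 Cond 3 libraries, ACSS2 is blue in all 3 Cond 2 libraries, and TM7SF2 is blue in both conditions.

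The largest rise was that of HMGCS1 (ENSG00000112972, chr5:43287470-43313512), the HMG-CoA synthase that commits acetyl units to mevalonate. It stood at 46.6, 61.4 and 48.6 TPM in the Cond 1 replicates and at 93.7, 116 and 96.1 TPM in the Cond 3 replicates. All Cond 3 libraries lay above all Cond 1 libraries, and the log2 fold change was 0.94 ± 0.10 (SE; edgeR, adjusted p = 1.42e-07). An unnamed gene on the opposite strand overlaps 37.7% of its exon bases, and whether counting used strand is not given in the sources used here.

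Further up and down the pathway, ACAT2, the cytosolic thiolase of the first step, rose from 50.4, 59.2 and 42.8 TPM to 64.5, 72.0 and 67.6 TPM (log2 fold change 0.40 ± 0.09, edgeR adjusted p = 0.000926). IDI1, the isomerase of the isoprenoid diphosphates, went from 32.3, 37.1 and 31.3 TPM to 43.9, 50.9 and 44.5 TPM (0.44 ± 0.09, edgeR adjusted p = 0.000635). FDPS, which joins these units to farnesyl diphosphate, went from 60.5, 64.4 and 58.4 TPM to 76.9, 95.7 and 79.4 TPM (0.43 ± 0.08, edgeR adjusted p = 0.000283). In each of these genes the lowest Cond 3 library was above the highest Cond 1 library. The kinases MVK and PMVK and the decarboxylase MVD, which lie between HMGCS1 and IDI1, were not called, with log2 fold changes of 0.075, 0.13 and 0.082. FDFT1 at 0.24 and GGPS1 at -0.22 were not called either. Opposite-strand genes overlap 22.2% of the exon bases of ACAT2, 18.6% of those of FDPS and 15.0% of those of IDI1.

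After squalene, HSD17B7, a sterol ketone reductase, rose from 8.17, 8.73 and 6.75 TPM to 11.2, 12.4 and 13.4 TPM (log2 fold change 0.62 ± 0.13, edgeR adjusted p = 0.00068). SC5D, the desaturase just before the last steps, rose from 35.3, 34.1 and 32.6 TPM to 46.5, 51.0 and 48.2 TPM (0.49 ± 0.08, edgeR adjusted p = 2.59e-05). DHCR7, the last reductase of one branch, rose from 70.2, 75.4 and 66.2 TPM to 89.7, 83.2 and 88.9 TPM (0.28 ± 0.07, edgeR adjusted p = 0.00379). The 2 groups did not overlap in any of them, and 23.1% of the 31-base words of HSD17B7 also occur in other genes. MSMO1, NSDHL and EBP, which oxidize and isomerize the sterol nucleus, had log2 fold changes of 0.22, 0.084 and 0.17 and were not called. SQLE had the smallest called rise of the sterol arm, 0.21 ± 0.07 with an edgeR adjusted p of 0.0209, and it lost the call without Cond 1 replicate 1 (0.111) or 3 (0.0589), or without Cond 3 replicate 2 (0.0847) or 3 (0.076), each an adjusted p of edgeR.

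LSS, which closes the sterol rings, had no count row here and was tested by limma on log2(TPM + 1) over 14253 genes, of which 39.9% passed in this comparison. It stood at 4.34, 5.18 and 6.15 TPM in Cond 1 and at 7.55, 8.68 and 8.12 TPM in Cond 3, with no overlap. The log2 fold change was 0.56 ± 0.15 on that scale (limma adjusted p = 0.00966), and it was 0.60 ± 0.15 (edgeR adjusted p = 0.00319) on the 161 to 344 whole reads per library that its TPM values imply, a reading chosen after seeing the data.

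One sterol enzyme fell. TM7SF2 (chr11:65111845-65116384), which reduces the sterol after the lanosterol demethylase, stood at 72.0, 75.4 and 75.0 TPM in Cond 1 and at 58.4, 57.8 and 54.0 TPM in Cond 3. Every Cond 3 library was below every Cond 1 library (log2 fold change -0.41 ± 0.08, edgeR adjusted p = 0.000232). LBR, no member but the other human gene for the same reductase activity, was at 62.2, 62.9 and 57.7 TPM in Cond 1 and at 97.0, 108 and 105 TPM in Cond 3, a log2 fold change of 0.73 (edgeR adjusted p = 1.98e-09). The lanosterol demethylase CYP51A1 had a log2 fold change of -0.18 and was not called, at 4.99 to 7.59 TPM over the 12 libraries, with 68.2% of its exon bases shared with unnamed genes on its own strand.

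**Figure D2:**
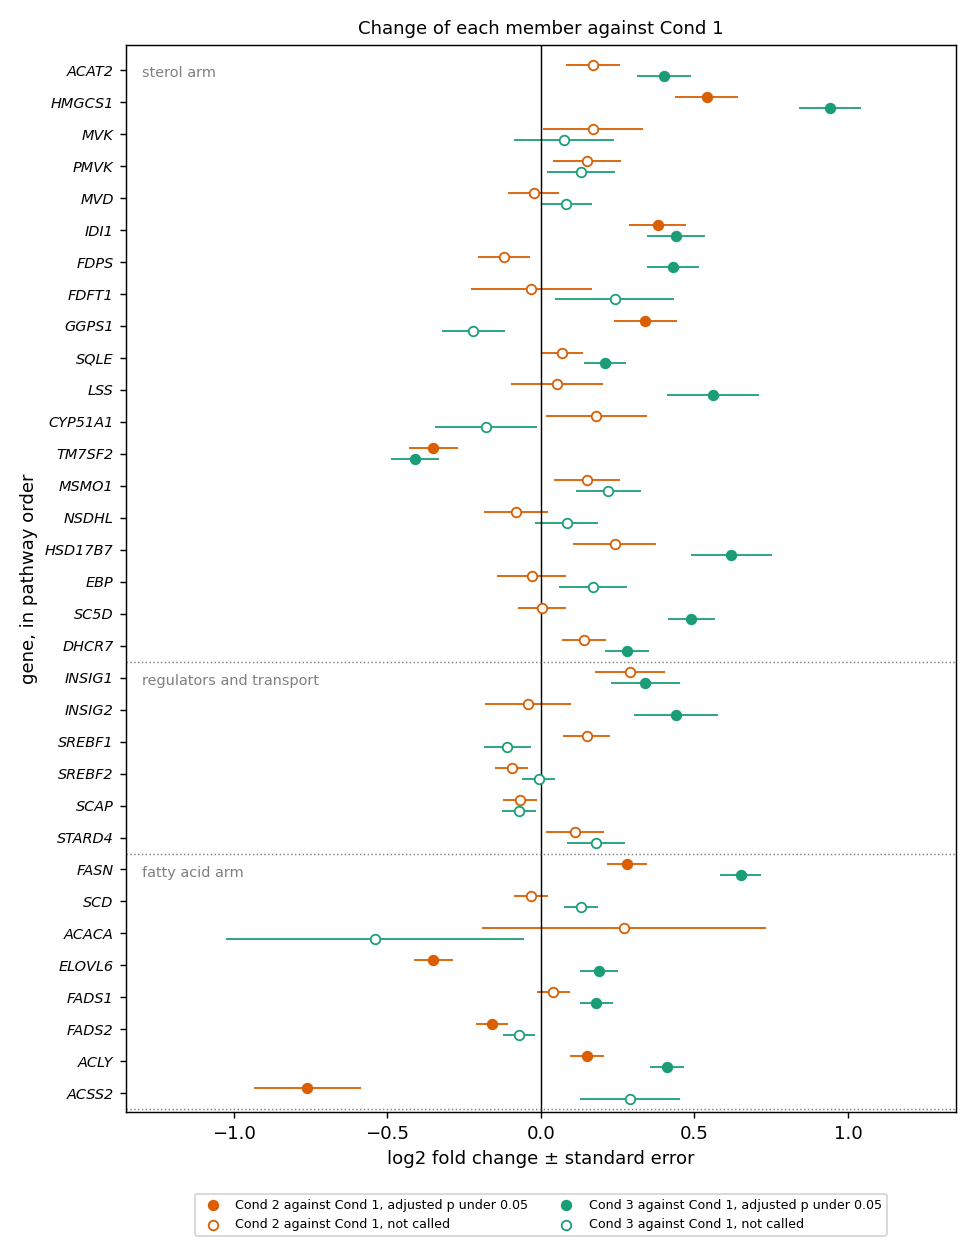
Log2 fold change against Cond 1 (x axis, bars ± standard error) for each member (y axis, pathway order) in Cond 2 (orange) and Cond 3 (green), filled where the adjusted p was under 0.05. LSS and SREBF2 come from limma on log2(TPM + 1) and the other members from edgeR. HMGCS1 reaches 0.94 in Cond 3, and ACSS2 lies at -0.76 in Cond 2.

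Among the regulators, both INSIG genes were higher in Cond 3. INSIG1 rose from 23.2, 27.2 and 24.0 TPM to 35.4, 29.0 and 31.2 TPM (log2 fold change 0.34 ± 0.11, edgeR adjusted p = 0.0204). INSIG2 rose from 8.73, 11.3 and 11.5 TPM to 14.1, 13.6 and 16.1 TPM (0.44 ± 0.14, edgeR adjusted p = 0.0122). Both were non-overlapping but close, and both lost the call when 1 library was left out. For INSIG1 the adjusted p of edgeR was 0.0957 without Cond 1 replicate 1, 0.0621 without Cond 1 replicate 3 and 0.118 without Cond 3 replicate 1. For INSIG2 it was 0.0954 without Cond 1 replicate 1 and 0.0701 without Cond 3 replicate 3. The factors themselves and their escort were not called: SREBF1 had a log2 fold change of -0.11, with a 95% interval of -0.27 to 0.04, SCAP of -0.071, with -0.18 to 0.04, and SREBF2, by limma, of -0.0068, with -0.11 to 0.10. STARD4, a carrier of sterol between membranes, was at 0.18 with an interval that reaches 0 and was not called.

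In the fatty acid arm, FASN (ENSG00000169710, chr17:82078338-82098294) rose from 234, 303 and 257 TPM in Cond 1 to 435, 430 and 407 TPM in Cond 3. This is a log2 fold change of 0.65 ± 0.07 (edgeR adjusted p = 5.23e-08), with no overlap. ACLY (chr17:41866917-41930542) rose from 231, 256 and 240 TPM to 332, 330 and 325 TPM (0.41 ± 0.05, edgeR adjusted p = 2.34e-06). ACLY supplies the acetyl-CoA from which FASN builds palmitate, and these were the largest called rises of the arm. ELOVL6, which elongates palmitate, rose from 48.5, 51.6 and 49.8 TPM to 58.7, 59.1 and 56.4 TPM (0.19 ± 0.06, edgeR adjusted p = 0.0172), and its adjusted p was 0.084 without Cond 1 replicate 1 and 0.0593 without Cond 3 replicate 2. FADS1, a desaturase of polyunsaturated fatty acids, rose from 76.8, 70.5 and 72.2 TPM to 87.6, 84.1 and 82.7 TPM (0.18 ± 0.05, edgeR adjusted p = 0.0091). SCD, the most abundant member, had a log2 fold change of 0.13 with a 95% interval of 0.03 to 0.24 and an adjusted p of 0.0599 by edgeR. ACSS2 at 0.29, FADS2 at -0.071 and ACACA at -0.54 were not called either.

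**Figure D3:**
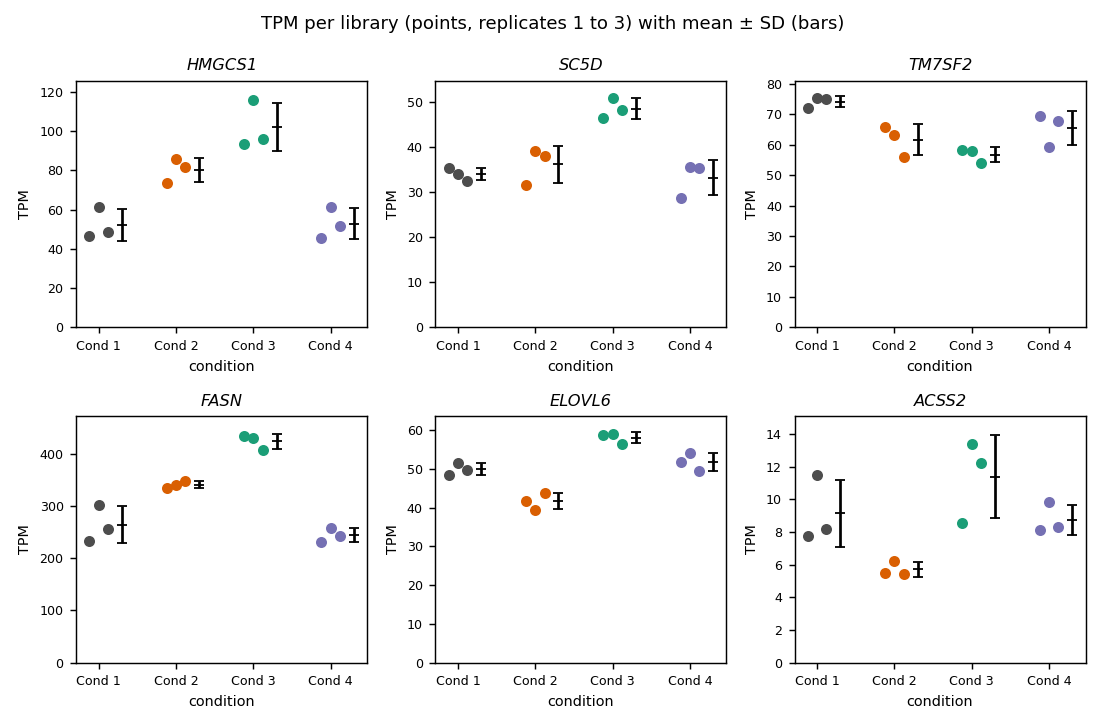
TPM (y axis, from 0) of 6 members in the 3 libraries of each condition (points), with mean ± SD (bars). HMGCS1 rises from Cond 1 over Cond 2 to Cond 3 without overlap, ELOVL6 lies below Cond 1 in Cond 2 and above it in Cond 3, and ACSS2 is lowest in Cond 2.

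Cond 2 against Cond 1 asked the same of heat-treated medium. The changes were fewer and went both ways: 9 of 31 members passed (29.0%), where 20.9% of all genes did. There were 5 higher members (16.1%, against 10.8% of all genes) and 4 lower ones (12.9%, against 10.1%). All Cond 2 libraries lay above all Cond 1 libraries for 11 members (35.5%) and below for 3 (9.68%), where this held for 24.4% and 11.2% of all genes. None reached a fold change of 2, which 4.34% of all genes reached with an adjusted p under 0.05. The median log2 fold change was 0.145 in the sterol arm, 0.113 in the regulators and 0.005 in the fatty acid arm, beside 0.00018 over all genes. With single libraries left out the sterol median ran from 0.067, without Cond 1 replicate 3, to 0.19, and the fatty acid median from -0.063 to 0.019, below 0 without Cond 2 replicate 2 or Cond 1 replicate 3. On the TPM scale the median gene of Cond 2 lay 0.08 higher, relative to Cond 1, than in the TMM-normalized fit, so TPM values of Cond 2 sit slightly high beside these fold changes.

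In the sterol arm HMGCS1, IDI1 and GGPS1 were higher and TM7SF2 was lower. HMGCS1 reached 73.7, 85.6 and 81.6 TPM in Cond 2, above all Cond 1 libraries and below all Cond 3 libraries (log2 fold change 0.54 ± 0.10, edgeR adjusted p = 0.000403). IDI1 reached 43.4, 45.6 and 50.4 TPM (0.38 ± 0.09, edgeR adjusted p = 0.00451). GGPS1, which makes geranylgeranyl diphosphate on a side branch, went from 19.6, 23.2 and 18.7 TPM to 26.5, 27.1 and 28.7 TPM (0.34 ± 0.10, edgeR adjusted p = 0.0197). The GGPS1 call was lost without Cond 1 replicate 1 (edgeR adjusted p = 0.0888), Cond 1 replicate 3 (0.0983) or Cond 2 replicate 3 (0.0606), and 37.3% of its exon bases lie in an unnamed gene on its own strand. TM7SF2 was at 65.9, 63.1 and 56.1 TPM, below all Cond 1 libraries (-0.35 ± 0.08, edgeR adjusted p = 0.00229). FDPS and SC5D, both higher in Cond 3, had log2 fold changes of -0.12 and 0.0044 in Cond 2 and were not called. The other sterol members that were not called lay between -0.08 for NSDHL and 0.24 for HSD17B7.

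No regulator with counts was called in Cond 2. INSIG1 came closest, at 31.7, 31.9 and 33.2 TPM, above all Cond 1 libraries, with a log2 fold change of 0.29 ± 0.11 and an adjusted p of 0.0669 by edgeR. SREBF2 stood at 201, 192 and 185 TPM in Cond 1 and at 168, 185 and 189 TPM in Cond 2, with overlap. By limma on log2(TPM + 1) it had a log2 fold change of -0.095 ± 0.05 (adjusted p = 0.216, where 26.2% of the genes tested by limma passed), and on the reads its TPM values imply, again chosen after seeing the data, of -0.18 ± 0.05 (edgeR adjusted p = 0.0093), so its call depends on the scale.

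The fatty acid arm split in Cond 2. FASN was at 335, 340 and 349 TPM (log2 fold change 0.28 ± 0.07, edgeR adjusted p = 0.003) and ACLY at 266, 296 and 298 TPM (0.15 ± 0.05, edgeR adjusted p = 0.0472), all above Cond 1. ACLY was near the threshold, and without Cond 1 replicate 1 or 3, or Cond 2 replicate 2 or 3, its adjusted p was 0.22, 0.0959, 0.148 and 0.135 by edgeR.

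The other direction was taken by ELOVL6, ACSS2 and FADS2. ELOVL6 (chr4:110045846-110199199) fell to 41.7, 39.5 and 43.7 TPM, below all Cond 1 libraries (-0.35 ± 0.06, edgeR adjusted p = 0.00021). ACSS2 (chr20:34872146-34927962), which makes acetyl-CoA from acetate, fell from 7.75, 11.5 and 8.19 TPM to 5.47, 6.24 and 5.42 TPM, the largest change of a member in Cond 2 (-0.76 ± 0.17, edgeR adjusted p = 0.00232). The enzymes that make acetyl-CoA from citrate and from acetate were thus called in opposite directions by edgeR. This contrast is weak on the ACLY side, whose call was lost under 8 of 16 alternative settings. FADS2, the first desaturase of polyunsaturated fatty acids, was at 118, 126 and 111 TPM in Cond 1 and at 110, 111 and 114 TPM in Cond 2, with overlap (-0.16 ± 0.05, edgeR adjusted p = 0.0287). Its adjusted p was 0.0546 without Cond 1 replicate 1, 0.134 without Cond 1 replicate 2 and 0.0997 without Cond 2 replicate 2 by edgeR, and 0.337 by limma on log2(TPM + 1).

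Cond 3 against Cond 2 compared the altered media with each other, and it shares its libraries with the comparisons above. Since the authors describe heated medium from day 2 and FBS on day 4, medium and time of exposure cannot be told apart here. Of 31 members 14 passed (45.2%), where 38.2% of all genes did. There were 12 higher in Cond 3 (38.7%, against 19.0% of all genes) and 2 lower (6.45%, against 19.2%). All Cond 3 libraries lay above all Cond 2 libraries for 11 members (35.5%) and below for 4 (12.9%), against 20.3% and 27.3% of all genes. The median log2 fold change was 0.136 in the sterol arm, 0.043 in the regulators and 0.213 in the fatty acid arm, beside -0.001 over all genes.

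The fatty acid arm held 6 of the higher members, with no lower one. ACSS2 was at 8.52, 13.4 and 12.2 TPM in Cond 3, above all Cond 2 libraries, with a log2 fold change of 1.05 ± 0.17 (edgeR adjusted p = 3.72e-05). It was the 1 member beyond a fold change of 2 in any comparison, here 2.07, where 8.77% of all genes passed with such a fold change. ELOVL6 followed at 0.54 ± 0.06 (edgeR adjusted p = 3.53e-07), FASN at 0.37, ACLY at 0.26, SCD at 0.17 and FADS1 at 0.14. SCD lost its call without Cond 2 replicate 1 (edgeR adjusted p = 0.0576) or Cond 3 replicate 2 (0.103). FADS1 lost it without Cond 2 replicate 1 (0.0857) or 3 (0.0957), or without any 1 of the Cond 3 replicates (0.13, 0.072 and 0.0586). Both had an adjusted p above 0.05 by limma on log2(TPM + 1) as well, 0.211 for SCD and 0.257 for FADS1.

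In the sterol arm FDPS was at 59.0, 60.2 and 59.2 TPM in Cond 2, within the range of Cond 1, and all Cond 3 libraries lay above it (log2 fold change 0.56 ± 0.08, edgeR adjusted p = 1.61e-05). SC5D was at 31.5, 39.1 and 38.0 TPM in Cond 2 and also higher in Cond 3 (0.48 ± 0.08, edgeR adjusted p = 2.9e-05), as was HMGCS1 (0.40 ± 0.10, edgeR adjusted p = 0.00254). HSD17B7 at 0.38 and ACAT2 at 0.22 were called with adjusted p-values of 0.0249 and 0.0453 by edgeR. Without Cond 2 replicate 1 or 2, or Cond 3 replicate 2 or 3, that of HSD17B7 was 0.0733, 0.0712, 0.061 and 0.115. Without Cond 2 replicate 1, 2 or 3, or Cond 3 replicate 2 or 3, that of ACAT2 was 0.138, 0.0622, 0.0559, 0.174 and 0.0965. GGPS1 went the other way, at 18.6, 19.0 and 16.1 TPM in Cond 3, below all Cond 2 libraries (-0.56 ± 0.10, edgeR adjusted p = 0.000146). LSS was higher by limma (0.51 ± 0.15, adjusted p = 0.0155), by which 41.8% of genes passed, and without Cond 2 replicate 3 or Cond 3 replicate 2 the adjusted p of limma was 0.0647 and 0.0553.

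Of the regulators, INSIG2 rose from Cond 2 to Cond 3 (log2 fold change 0.49 ± 0.14, edgeR adjusted p = 0.00655), with Cond 2 libraries at 10.8, 11.0 and 10.8 TPM. SREBF1 was lower, at 62.1, 51.2 and 53.6 TPM against 75.3, 67.8 and 65.6 TPM (-0.27 ± 0.08, edgeR adjusted p = 0.00804). Its adjusted p was 0.0588 without Cond 2 replicate 1 and 0.0594 without Cond 3 replicate 2. SREBF2 was not called by limma (0.088 ± 0.05, adjusted p = 0.209), while on its recovered reads it was called higher (0.15 ± 0.05, edgeR adjusted p = 0.0211), so this call too depends on the scale.

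Cond 4 against Cond 1 asked whether pipetting left a trace in these genes on day 5. By edgeR none of 31 members passed, where 0.0282% of all genes did, and 3 members had an unadjusted p under 0.05, where 6.21% of all genes did. By DESeq2 none passed either, and by limma neither LSS nor SREBF2 passed. Log2 fold changes ran from -0.21 for INSIG1 to 0.61 for ACACA, a gene of few reads. The 3 members were GGPS1 at 0.27, TM7SF2 at -0.19 and FADS2 at -0.18, named after their values were seen. The median was -0.019 in the sterol arm, -0.003 in the regulators and 0.013 in the fatty acid arm.

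Summed over each group, both arms were highest in Cond 3. The sterol sum was 771, 849 and 738 TPM in Cond 1, 826, 926 and 918 in Cond 2, 946, 984 and 940 in Cond 3 and 731, 791 and 775 in Cond 4. Every Cond 3 library was above every other library, while Cond 2 overlapped Cond 1 through Cond 1 replicate 2. The fatty acid sum was 1183, 1300 and 1189 TPM in Cond 1, 1294, 1382 and 1381 in Cond 2, 1541, 1577 and 1514 in Cond 3 and 1131, 1287 and 1216 in Cond 4, and again Cond 3 stood above all others and Cond 1 replicate 2 overlapped Cond 2. Relative to the Cond 1 mean, the Cond 3 mean was 122% for the sterol arm and 126% for the fatty acid arm. The 6 regulators summed to 382 to 417 TPM in all libraries, with every condition overlapping Cond 1.

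**Figure D4:**
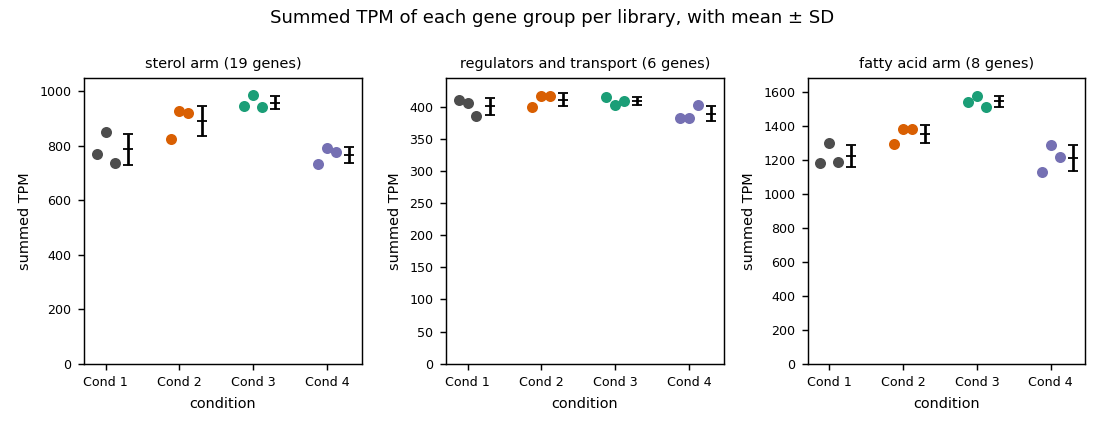
Summed TPM (y axis, from 0) of the 19 sterol genes, the 6 regulators and the 8 fatty acid genes in each library (points), with mean ± SD (bars) by condition. Cond 3 lies above all other libraries in both arms, and the regulators overlap.

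The proportion of the arms in each condition overlapped that in Cond 1, and it was lower in Cond 2 than in Cond 3. The fatty acid sum over the sterol sum was 1.56 ± 0.05 in Cond 1 (SD, n = 3), 1.52 ± 0.04 in Cond 2, 1.61 ± 0.01 in Cond 3 and 1.58 ± 0.04 in Cond 4. Single libraries ran from 1.53 to 1.61 in Cond 1 and from 1.60 to 1.63 in Cond 3, so that these overlap, while Cond 2 libraries, at 1.49 to 1.57, lay below those of Cond 3. In Cond 2 the sterol arm had 3 higher and 1 lower member and the fatty acid arm 2 higher and 3 lower, and whether the arms differ in this was not tested.

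Related genes, taken from 7 lists of 96 genes in all, included genes with larger changes than any member. The counts of called genes in each list stand beside 10.8% higher and 10.1% lower over all genes in Cond 2 and 19.5% higher and 18.8% lower in Cond 3. With 10 to 18 genes with counts in a list, a share near these is not a result about the list. In the list for sterol uptake, storage and efflux, 2 of 13 genes with counts were higher and 4 lower in Cond 2, and 3 were higher and 2 lower in Cond 3. SOAT1, which esterifies cholesterol for storage, was at 2.23, 2.75 and 3.68 TPM in Cond 1, 11.5, 12.1 and 10.9 in Cond 2 and 7.13, 6.26 and 6.97 in Cond 3. Both altered media were above the control without overlap (log2 fold changes 1.90 and 1.20, edgeR adjusted p = 5.85e-08 and 2.31e-05), with Cond 3 below Cond 2 (-0.70, edgeR adjusted p = 0.00227). ABCA1, which exports cholesterol to lipoprotein, went from 5.90, 6.26 and 6.39 TPM to 13.2, 15.6 and 14.1 in Cond 2 and to 14.8, 12.2 and 12.2 in Cond 3 (log2 fold changes 1.12 and 1.05, edgeR adjusted p = 3.23e-08 and 4.73e-08). ABCG1, another cholesterol exporter, was at 2.40, 1.59 and 1.90 TPM in Cond 1 and at 7.41, 5.70 and 7.30 in Cond 3 (1.40 by limma on log2(TPM + 1), adjusted p = 7.55e-05). VLDLR, a lipoprotein receptor, fell from 44.7, 38.7 and 40.3 TPM to 23.1, 25.9 and 26.7 in Cond 2 and to 16.6, 19.3 and 18.5 in Cond 3 (-0.80 and -1.22, edgeR adjusted p = 2.16e-08 and 1.49e-11).

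**Figure D5:**
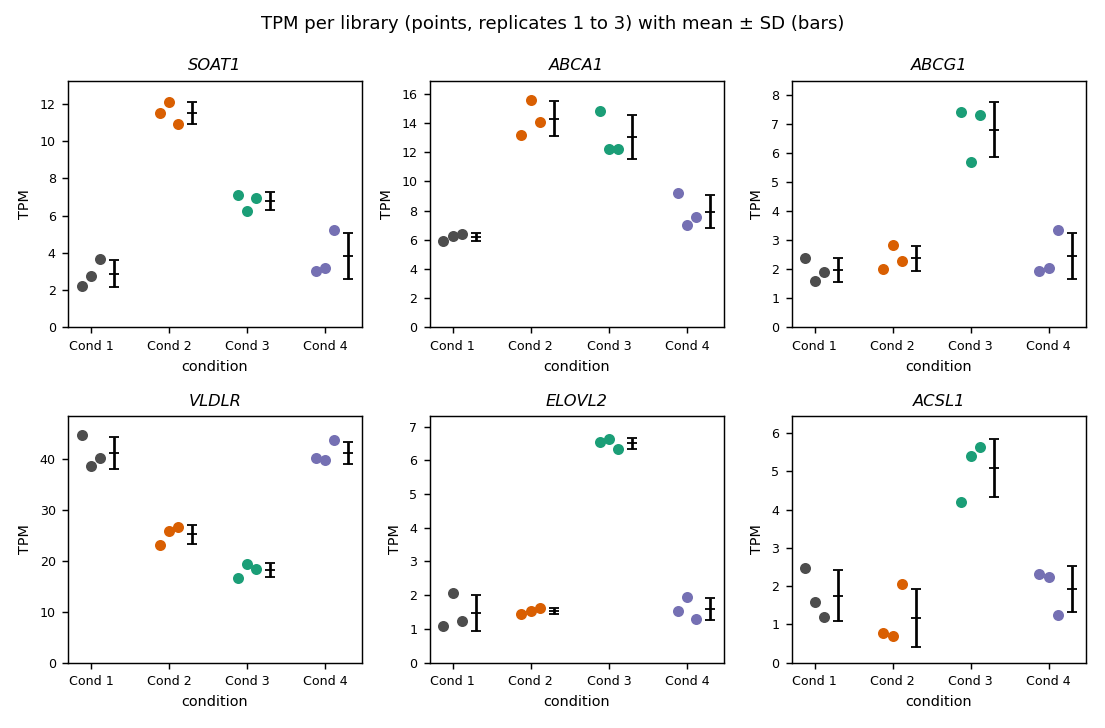
TPM (y axis, from 0) of 6 related genes in the 3 libraries of each condition (points), with mean ± SD (bars). SOAT1 is highest in Cond 2, VLDLR is lowest in Cond 3, and the Cond 3 libraries of ABCG1, ELOVL2 and ACSL1 lie above all others.

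In the list for other fatty acid synthesis and elongation, 9 of 18 genes were higher and 5 lower in Cond 3, and 1 was higher and 5 lower in Cond 2. ELOVL2, which elongates polyunsaturated fatty acids, was at 1.09, 2.07 and 1.24 TPM in Cond 1 and at 6.55, 6.64 and 6.33 in Cond 3 (log2 fold change 2.13, edgeR adjusted p = 7.82e-07). SCD5, a second monounsaturated desaturase, was at 0.686, 1.40 and 1.09 TPM and at 2.31, 4.01 and 2.85 TPM (1.50, edgeR adjusted p = 0.00162). Both are low genes beside SCD at 451 to 482 TPM in Cond 1. MLXIPL, the carbohydrate-responsive factor ChREBP, was lower in Cond 2 (-0.61, edgeR adjusted p = 0.00735) and stood above its Cond 2 level in Cond 3 (1.13, edgeR adjusted p = 4.95e-06).

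In the list for fatty acid activation and lipid assembly, 7 of 14 genes were higher and 2 lower in Cond 3, and 2 were higher and 2 lower in Cond 2. ACSL1, which activates fatty acids to acyl-CoA, was at 2.48, 1.58 and 1.19 TPM in Cond 1 and at 4.21, 5.41 and 5.64 TPM in Cond 3 (log2 fold change 1.51, edgeR adjusted p = 0.000571). AGPAT2, an acyltransferase of phospholipid and triglyceride synthesis, rose in Cond 3 by 0.73 (edgeR adjusted p = 1.88e-06). FABP5, a fatty acid carrier, was lower in Cond 2 (-0.48, edgeR adjusted p = 0.00188) and higher in Cond 3 (0.62, edgeR adjusted p = 4.06e-05). DGAT2, which completes triglyceride, was higher in Cond 2 (1.03, edgeR adjusted p = 1.35e-05).

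In the list for SREBP processing and turnover, 2 of 12 genes were higher and 5 lower in Cond 3, and 2 were higher and 1 lower in Cond 2. MBTPS2, the protease that makes the second cut in the SREBPs, was at 12.6, 10.8 and 9.77 TPM in Cond 1, 7.48, 10.7 and 9.40 in Cond 2 and 7.74, 7.53 and 6.78 in Cond 3. It was lower in both (log2 fold changes -0.35 and -0.62, edgeR adjusted p = 0.0297 and 0.000176), with overlap in Cond 2 and none in Cond 3. MBTPS1, the protease of the first cut, went the other way in Cond 3 (0.33, edgeR adjusted p = 0.000245), without overlap. It was not called in Cond 2. UBXN8, of the endoplasmic reticulum degradation machinery, was lower in Cond 3 at -0.70 (edgeR adjusted p = 0.000681). Among the other sterol enzymes and binding proteins, 5 of 11 were higher and 3 lower in Cond 3, and in Cond 2 none was higher and 4 were lower. These included POR, the reductase that feeds electrons to SQLE and CYP51A1 (-0.39, edgeR adjusted p = 3.31e-05), and ACAT1, the mitochondrial thiolase (-0.48, edgeR adjusted p = 0.000232).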

How the data were processed

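Poly(A) RNA libraries of 12 wells were sequenced, and the authors trimmed the reads with cutadapt 4.1 and fastp 0.20.1, aligned them to GRCh38 with HISAT2 2.1.0 and counted them with featureCounts. The authors deposited whole-number counts per gene. The TPM values they deposited follow from the counts and gene lengths (largest relative deviation on recomputing 5.22e-15). Of 58580 count lines, 5 held no whole gene row and were left out, and 2042 genes with TPM had no count row, among them LSS and SREBF2.

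Counts were normalized by TMM, filtered by filterByExpr (17747 genes kept) and tested with edgeR 4.0.16 (quasi-likelihood, R 4.3.3) in 1 fit over the 4 conditions, with Benjamini-Hochberg adjustment. LSS and SREBF2 were tested with limma 3.58.1 on log2(TPM + 1) in the 14253 genes that reached 1 TPM in every library. Their whole reads were also recovered from TPM (shortest gene length giving whole numbers within 0.0001 in all 12 libraries), an alternative chosen after seeing the data. SE stands for the standard error of a log2 fold change and 95% intervals are the fold change ± 1.96 SE. Coordinates are from GENCODE release 44 and overlaps were counted on its exons. The methods were tested on simulated data. The members and lists were chosen with earlier results of these data known. All members could be named, with values per library for the largest called sterol members and all called others, and up to 3 called genes per related list. Alternatives were DESeq2 1.42.0, upper-quartile and RLE normalization, no low-count filter, limma with pseudocounts of 1 and 0.1 or a TPM above 0, the 6 libraries alone, a replicate block and each replicate left out. Depth of 16441148 to 21871503 counts gave ACACA 15 to 62 reads per library, and counting error is large there. One gene of a related list is not reported here.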

Additional observations from a re-analysis of the deposited data

How the results depend on the processing

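No call of a member changed direction under any alternative, and 5 of 9 calls in Cond 2, 12 of 16 in Cond 3 and 8 of 15 in Cond 3 against Cond 2 (LSS included) were kept under all of them. Asking for a fold change above 2 left 0 members in each arm in every comparison, except 1 fatty acid member in Cond 3 against Cond 2. In Cond 2, regulators called higher numbered 1 by limma with either pseudocount and in the 6 libraries alone, and their median was 0.19 or 0.20 by limma. Fatty acid members called higher numbered 1 with upper-quartile or RLE normalization, no filter, or the 6 libraries alone, and lower members 1 by limma with a TPM above 0, where ACSS2 had an adjusted p of 0.0701. Under that setting 1 regulator was higher in Cond 3. In Cond 3 against Cond 2, limma called 3, 3 and 2 sterol members higher and 2 lower in its 3 settings, with medians of 0.077, 0.078 and 0.077, and gave the regulators medians of -0.020, -0.021 and -0.020, where HMGCS1 had an adjusted p of 0.124 with a TPM above 0. By limma on log2(TPM + 1), the median gene itself shifted from the main fit by 0.08 in Cond 2 against Cond 1. In Cond 3 against Cond 2 it shifted by -0.051. The cause of the shifts in these counts and medians of the members was not tested.

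With each replicate left out in turn, in Cond 2 the sterol arm had 2 to 4 higher and 1 lower with a median of 0.067 to 0.19, the fatty acid arm 1 to 2 higher and 2 to 3 lower with a median of -0.063 to 0.019, and the regulators a median of 0.046 to 0.15. In Cond 3 the sterol arm had 7 to 8 higher and 1 lower with a median of 0.17 to 0.27, the regulators 0 to 2 higher with a median of 0.11 to 0.24, and the fatty acid arm 3 to 5 higher with a median of 0.16 to 0.20. In Cond 4 the regulators had a median of -0.069 to -0.0042, the sterol arm -0.076 to 0.062 and the fatty acid arm -0.041 to 0.047. In Cond 3 against Cond 2 the sterol arm had 3 to 5 higher and 1 lower with a median of 0.11 to 0.17, the regulators 1 higher, 0 to 1 lower and a median of -0.0028 to 0.069, and the fatty acid arm 4 to 6 higher with a median of 0.19 to 0.23.

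LSS in Cond 2, not called and 0.052 by limma, turned negative on recovered reads: -0.024, with DESeq2 and RLE -0.027, upper-quartile -0.038, no filter -0.029, 6 libraries -0.030 and a replicate block -0.033. With replicates left out LSS ran by limma from -0.067 up to 0.16 and was also below 0 on recovered reads without Cond 1 replicate 1 (-0.15) or 2 (-0.034) and without Cond 2 replicate 1 (-0.0081) or 2 (-0.17). SREBF2 in Cond 3, not called, ran by limma from -0.036 to 0.025, the latter without Cond 1 replicate 1.

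Over all genes the deviations of same-numbered libraries correlated at -0.013 to 0.038 over 18 pairs (median 0.016). For 36 pairs with different numbers this was -0.069 to 0.061 (median -0.005). The labels do not tie a number to a plate, so the numbers were not used as pairs. Replicate 2 was often the highest among the members, and a correlation over all genes cannot exclude an effect of the plate on them. The replicate block gave 3 higher sterol members in Cond 2, 8 in Cond 3 and 5 in Cond 3 against Cond 2, and changed no other count but the fatty acid arm in Cond 3, from 4 to 5 higher.

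Depth limits ACACA, FDFT1, CYP51A1, ACSS2, MVK and LSS among others, and overlapping or copied exons limit HMGCS1, GGPS1, CYP51A1, ACACA and LSS.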

Other observations

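Genes that burn fatty acids and genes that use isoprenoids were described with the same tests. Over all genes, 10.8% were higher and 10.1% lower in Cond 2, and 19.5% and 18.8% in Cond 3, and shares of these short lists near those values are not a result about the lists. In the list for fatty acid oxidation, 3 of 11 genes with counts were lower and none higher in Cond 2, and 2 were higher and 1 lower in Cond 3. CPT1A, which admits fatty acids to the mitochondrion, was at 3.59, 4.03 and 4.78 TPM in Cond 1 and at 1.87, 2.21 and 3.73 TPM in Cond 2 (log2 fold change -0.77, edgeR adjusted p = 0.0272), with overlap. ECI1, an isomerase for unsaturated fatty acids, was lower in Cond 3 (-0.36, edgeR adjusted p = 0.00247) and CPT2, the inner membrane partner of CPT1A, was higher (0.34, edgeR adjusted p = 0.00699). In the list for the isoprenoid branches, which use the products of FDPS and GGPS1, none of 10 genes was called in Cond 2, and in Cond 3 none was higher and 3 were lower: PGGT1B (-0.34), FNTA (-0.32), both subunits of enzymes that attach isoprenoids to proteins, and DHDDS (-0.24), of dolichol synthesis, with edgeR adjusted p-values of 0.00596, 0.00185 and 0.0167.

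Within conditions, one replicate number often held the highest value. Replicate 2 had the highest TPM for 14 of 19 sterol members in Cond 1, 9 in Cond 2, 13 in Cond 3 and 9 in Cond 4. In Cond 2 replicate 3 was highest for 8 of them. The same was not counted over all genes, so these counts are not a result about the members. HMGCS1, FDPS, SQLE, SCD and ACSS2 were highest in replicate 2 in all 4 conditions, and SREBF1 was highest in replicate 1 in all 4. The labels do not say which plate a replicate number stands for.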
